A study of Homo sapiens with 7 samples.

Results

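The genes that copy DNA and that carry a cell from G1 into S phase were examined in HCT116, an established human colorectal carcinoma cell line. A list of 51 gene symbols was matched to the deposited table, and 51 of the 20072 symbols in it were taken as members. The members comprised 16 genes of origin licensing, 5 of helicase activation, 20 of the replication fork, 4 of nucleotide supply and 6 regulators of the G1/S transition. Log-phase cells were used for all 7 libraries, and the labels name no treatment and no genetic change. The study grew the cells in serum-free medium with epidermal growth factor, insulin and transferrin. For polysome isolation it first incubated them with cycloheximide, a step it does not state for the other assays. Transcription rate (TR) was measured in 2 GRO-seq libraries, which read the RNA that engaged polymerases extend in nuclei. RNA abundance (RA) was measured in 3 RNA-seq libraries, and translation activity (TA) in 2 libraries of the mRNA that sediments with polysomes. Each value is in RPKM, the reads on a gene scaled by its exon length and by the size of the library. The libraries are called TR1, TR2, RA1, RA2, RA3, TA1 and TA2 after the replicate numbers in the labels. HCT116 is 1 line. The study calls its replicates biological and divided growing cells among the 3 assays, but neither the labels nor the methods say which libraries shared a culture, and any p-value covers the spread between these libraries.

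DNA replication starts when the origin recognition complex (ORC), CDC6 and CDT1 load the MCM helicase on DNA in G1. CDC45 and the GINS complex then join the helicase and activate it, and the sliding clamp PCNA, the clamp loader RFC, the single-strand binding complex RPA and the polymerases copy the template. Many of these genes are transcribed in late G1 by E2F factors, which the retinoblastoma protein holds back earlier in G1, and proliferating carcinoma cells express the whole set.

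All 51 members counted as expressed, which was set as a mean RPKM of 1 or more in TR, RA or TA. The 6 epithelial markers examined each had at least 1 RPKM in RA. Of 10 markers of blood cells, fibroblasts or endothelium 1 did, COL1A1 at 10.1 to 13.8 RPKM. The other-type markers summed to 29.0 to 33.0 RPKM in TR, 10.8 to 14.5 in RA and 4.02 to 5.25 in TA. Library sizes were 3391897 and 5629982 reads for TR, 20299018 to 22532134 for RA and 30805391 and 22421062 for TA. The least covered member had 60 reads in TR1 and 117 in TR2, and at least 69 reads in each RA and TA library, so that no member was near the floor of 3 reads.

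The start of each gene was read for E2F sequences because E2F factors are known regulators of this set. The 8-base sequences TTTCCCGC, TTTCGCGC, TTTGCCGC and TTTGGCGC were searched on both strands in the 250 bases before and the 50 bases from the start of the canonical transcript, in GRCh37 with GENCODE release 44. A site on one strand can overlap a site on the other. Of 51 member windows, 24 (47.1%) held at least 1 of them, against 4.96% of the windows of 13096 expressed protein-coding genes. The 6 windows below are given because their genes recur in the results, each 5′ to 3′ on the strand of the gene, with the E2F sequence in capitals and 10 bases on either side.
MCM3: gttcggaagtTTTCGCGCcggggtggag
MCM5: cagccagaagTTTCGCGCcaaattgttc
MCM6: attggtcaggTTTGGCGCgaaatctcca
MCM7: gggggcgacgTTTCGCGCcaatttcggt
CDC25A: gtggattccgTTTGGCGCcaactaggaa
E2F1: gcaaaaaggaTTTGGCGCgtaaaagtgg
These windows lie on the minus strand at chr6:52149527-52149554 for MCM3, chr2:136634086-136634113 for MCM6, chr7:99699012-99699039 for MCM7, chr3:48229934-48229961 for CDC25A and chr20:32274194-32274221 for E2F1, and on the plus strand at chr22:35795924-35795951 for MCM5. The MCM5, MCM6, CDC25A and E2F1 sequences begin 199, 90, 44 and 20 bases before the annotated start, and those of MCM3 and MCM7 begin 4 and 9 bases before it. Every gene from MCM2 to MCM7 held a match in its window, while of the 6 ORC genes ORC3 did. The shorter sequence CCAAT, also on both strands, was in 31 member windows (60.8%) and in 35.3% of all windows. A match describes the letters and does not show binding, and a window without a match says nothing of sites elsewhere.

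In RA, the members were expressed at very different levels in the 3 replicate libraries, and they differed together. The median member had 34.0 RPKM in RA1, 18.5 in RA3 and 13.0 in RA2, while the median of all 14305 expressed genes was 8.94, 8.94 and 8.62 RPKM. The members were higher in RA1 than in RA2 by a median of 3.18-fold, and 40 of 51 were past 2-fold higher, against 7.11% of all expressed genes. No member was past 2-fold lower. Between RA3 and RA1, 21 members were past 2-fold higher in RA1 (background 2.92%), and between RA2 and RA3, 13 were past 2-fold higher in RA3 (background 2.57%). The order RA1 above RA3 above RA2 held for 47 of 51 members, against 26.1% of all expressed genes. Each of these comparisons sets 1 library against 1 library, so there is no test of them, and the labels attach no condition to the difference. In bulk libraries, a larger share of cells in one phase of the cycle and more RNA per cell cannot be told apart.

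**Figure D1:**
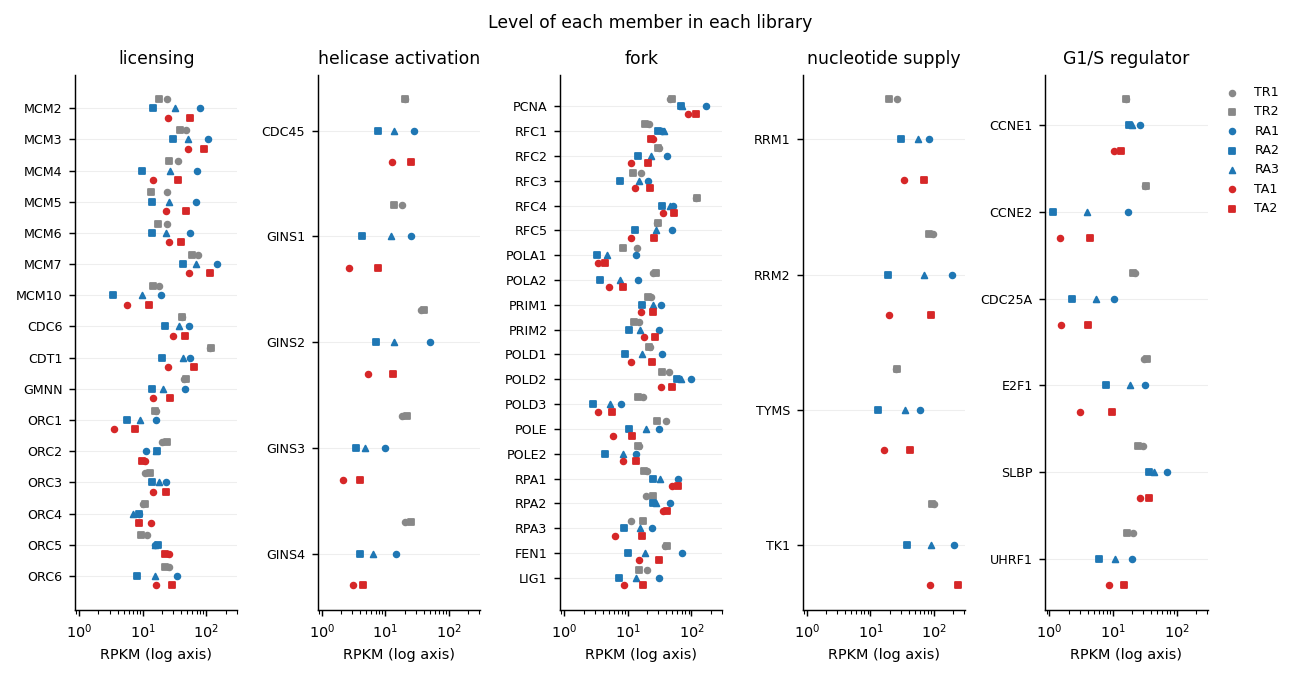
RPKM of each of the 51 members in each library on a log axis, in 5 groups by role; grey marks TR, blue RA and red TA, and circles, squares and triangles mark replicates 1, 2 and 3. The blue circles of RA1 lie to the right of the blue squares of RA2 for 49 of 51 members on the log2 scale, while the grey points of TR1 and TR2 lie close together.

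TA showed a difference of the same kind between its libraries. The median member had 14.6 RPKM in TA1 and 24.3 in TA2, and 20 of 51 members were past 2-fold higher in TA2 (background 4.12%), with a median of 1.81-fold. In TR, 0 of 51 members differed by over 2-fold in either direction (background 2.39%), and the median member had 23.7 and 21.9 RPKM. The median SD of a member over replicates on the log2 scale was 0.84 in RA, 0.60 in TA and 0.16 in TR, where the same figure over all expressed genes was 0.26, 0.20 and 0.16. After each library was set relative to its own median member, the members' SD was 0.32 in RA and 0.23 in TA. In TR it was 0.14.

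**Figure D2:**
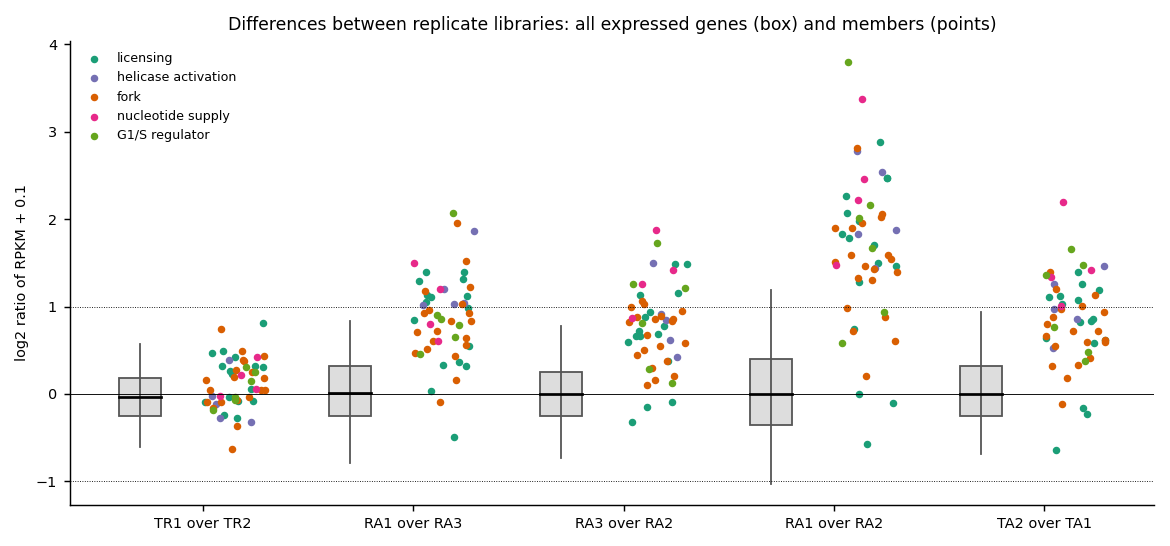
Log2 ratio of RPKM + 0.1 between pairs of replicate libraries; each point is a member, coloured by role, and beside it the box gives the quartiles and the line the 5th to 95th percentile of all 14305 expressed genes. The members lie around 0 for TR1 over TR2 and mostly above 0 in the other 4 pairs, with a median of 1.67 for RA1 over RA2.

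Among the licensing genes, the MCM helicase subunits had the same order of RA libraries. MCM2 had 80.2, 14.4 and 32.3 RPKM in RA1, RA2 and RA3, 24.6 and 56.2 in TA1 and TA2, and 24.0 and 17.8 in TR1 and TR2. MCM4 had 71.2, 9.59 and 27.0 RPKM in RA, 14.6 and 35.2 in TA, and 35.3 and 25.4 in TR. The ratio of RA1 to RA2 was 7.43 for MCM4, 5.57 for MCM2, 4.85 for MCM5, 3.96 for MCM6, 3.56 for MCM3 and 3.45 for MCM7. MCM7 was the highest of the 6 subunits in each of the 7 libraries, with 147, 42.6 and 67.6 RPKM in RA, 53.5 and 116 in TA and 72.6 and 60.2 in TR. MCM3 had 106, 29.9 and 51.3 RPKM in RA and 51.9 and 92.8 in TA, against 47.6 and 38.3 in TR. MCM5 had 67.8, 14.0 and 25.8 RPKM in RA, 23.5 and 48.1 in TA and 23.7 and 13.5 in TR. MCM6 followed with 56.0, 14.1 and 22.8 RPKM in RA, 26.2 and 39.2 in TA and 24.1 and 17.1 in TR. The 6 subunits form a hexamer, and the ratio of the highest to the lowest of them was between 2.62 and 4.47 in every library. Exons of another annotated gene cover 23.6% of MCM2, so its level is uncertain. MCM10, which acts after loading, had 19.0, 3.36 and 9.56 RPKM in RA and 18.1 and 14.4 in TR.

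The origin recognition complex was divided. ORC5 had 15.8, 17.1 and 15.4 RPKM in RA, so that its highest and lowest RA libraries differed by 1.11-fold. ORC4, at 8.78, 8.76 and 7.01 RPKM, and ORC2, at 11.4, 17.0 and 16.0 RPKM, also stood outside the order of the RA libraries, and ORC2 was lowest in RA1. These 3 subunits were lower in TA2 than in TA1, ORC4 at 13.6 and 8.69 RPKM, ORC5 at 26.1 and 22.3 and ORC2 at 10.9 and 9.70. ORC1, the ATPase subunit whose amount is known to vary over the cell cycle, had 16.1, 5.63 and 8.95 RPKM in RA and 3.58 and 7.66 in TA. ORC6 had 34.0, 8.05 and 15.5 RPKM in RA and 15.9 and 28.3 in TA, and ORC3 had 23.3, 13.9 and 18.1 in RA and 14.7 and 23.0 in TA. In TR, ORC1 had 15.9 and 15.3 RPKM, ORC3 10.8 and 12.8, ORC4 10.2 and 10.8, ORC5 11.5 and 9.22 and ORC6 26.2 and 22.4. The highest subunit was 2.57 and 2.62 times the lowest in TR and 2.59 to 7.31 times in RA and TA. The ratio of RA1 to RA2 within the complex ran from 0.669 for ORC2 to 4.23 for ORC6. Of the other loading factors, CDC6 differed by 2.43-fold between RA1 and RA2, CDT1 by 2.77-fold and its inhibitor GMNN by 3.28-fold.

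At the fork, the flattest member over the RA libraries was RFC1, the large subunit of the clamp loader, with 34.3, 29.7 and 36.5 RPKM, and it was the fourth member outside the order. RFC4, a small subunit of the same complex, had 51.4, 33.8 and 46.1 RPKM. FEN1, the nuclease that removes the flap of Okazaki fragments, had 72.0, 10.2 and 18.5 RPKM in RA and 15.1 and 30.3 in TA, against 38.6 and 41.0 in TR. LIG1, the ligase of the same step, had 30.8, 7.32 and 13.5 RPKM in RA. In the single-strand binding complex, RPA2 had 46.3, 25.1 and 28.1 RPKM in RA, 35.9 and 40.8 in TA and 19.3 and 24.9 in TR, and RPA3 had 23.8, 8.77 and 15.6 in RA, 6.35 and 16.8 in TA and 11.1 and 17.2 in TR. RPA3 was the lowest of the 3 subunits in each library. POLD1, the catalytic subunit of DNA polymerase delta, had 34.1, 9.11 and 16.7 RPKM in RA, 11.0 and 24.3 in TA and 22.6 and 21.8 in TR. POLA1, that of DNA polymerase alpha, had 13.6, 3.26 and 4.64 RPKM in RA, 3.41 and 4.32 in TA and 14.1 and 8.43 in TR. The primase subunits were PRIM1, at 33.6, 16.9 and 24.8 RPKM in RA, and PRIM2, at 30.4, 10.4 and 15.6. Other genes' exons cover 19.1% and 18.3% of their annotated exons and 10.6% of those of RFC5, so these are uncertain. Over the 20 fork members the median ratio of RA1 to RA2 was 2.80, and 15 of them were past 2-fold higher.

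The 4 nucleotide supply genes were all past 2-fold higher in RA1 than in RA2, with a median ratio of 5.06. RRM2, the small subunit of ribonucleotide reductase and the one known to be made in S phase, had 195, 18.8 and 69.2 RPKM in RA and 19.6 and 89.8 in TA, while TR1 and TR2 gave 96.5 and 83.1. RRM1, the large subunit, had 84.5, 30.3 and 55.5 RPKM in RA and 34.2 and 68.6 in TA, against 25.9 and 19.3 in TR. RRM2 was therefore above RRM1 in TR, RA1, RA3 and TA2, but below it in RA2 and TA1. TK1, thymidine kinase, had the highest mean RA of the members, with 206, 37.3 and 89.5 RPKM, and reached 87.9 and 235 RPKM in TA. TYMS, thymidylate synthase, had 60.7, 13.0 and 34.9 RPKM in RA. Exons of ENOSF1 and TYMSOS cover 47.9% of its annotated exons. Since the strand setting of the counting is not given in the sources used here, its level is uncertain.

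CCNE2, a cyclin that activates CDK2 at the G1/S transition, had the widest range in RA of the 51 members. It had 16.9, 1.12 and 3.94 RPKM in RA, 15.1-fold between RA1 and RA2, and 1.49 and 4.32 in TA, against 31.7 and 33.3 in TR. Exons of other genes, INTS8 among them, cover 37.1% of its annotated exons. INTS8 had 27.5 and 28.8 RPKM in TR and 35.0 to 40.3 in RA, so the TR of CCNE2 and its ratio to TR are uncertain. The related cyclin CCNE1 had 26.9, 18.0 and 19.6 RPKM in RA, a range of 1.5-fold. E2F1, the transcription factor, had 31.8, 7.82 and 18.3 RPKM in RA and 3.03 and 9.80 in TA. CDC25A, the phosphatase that activates CDK2, had 10.3, 2.23 and 5.49 RPKM in RA and 1.51 and 4.02 in TA. SLBP, which binds the stem-loop of histone mRNA, and UHRF1, which binds hemimethylated DNA, differed by 1.91- and 3.22-fold between RA1 and RA2.

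A larger difference between RA libraries went with a larger one between TA libraries. Over the 51 members, RA1 over RA2 and TA2 over TA1 on the log2 scale had a Pearson r of 0.811 and a Spearman rho of 0.742, and RA3 over RA2 and TA2 over TA1 had an r of 0.888. These are descriptions across genes, which are not independent replicates, and over the 10825 genes that reached 1 RPKM in TR, RA and TA alike the same r was 0.562 and 0.741. RA1 over RA2 and TR1 over TR2 had an r of 0.203 over the members. Members with an E2F sequence in the window had a median RA1 over RA2 of 1.92 on the log2 scale, and those without 1.48, with ranges of 0.74 to 2.88 and -0.58 to 3.80 that overlapped widely.

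**Figure D3:**
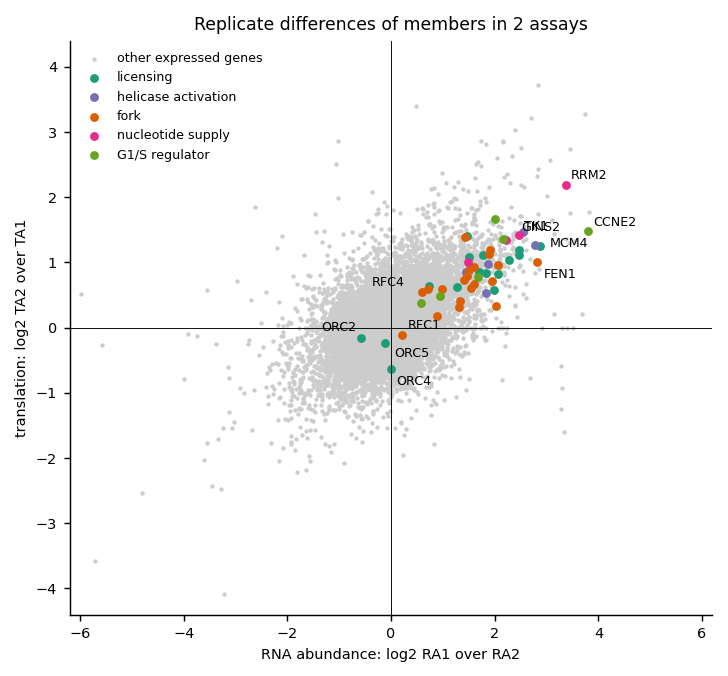
Log2 ratio of RA1 over RA2 against that of TA2 over TA1, both of RPKM + 0.1, for the 51 members, coloured by role, and for the other expressed genes in grey. The members lie mostly to the upper right, RRM2 and CCNE2 farthest out, while ORC2, ORC4, ORC5 and RFC1 lie near or below 0 in TA.

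A few stress response genes, chosen after their values were seen, were lower in RA1 than in RA2 and RA3. DDIT3 had 30.4, 358 and 306 RPKM in RA1, RA2 and RA3, ASNS had 33.1, 209 and 127, and ATF3 had 21.3, 90.9 and 84.2. In TA1 and TA2 they had 127 and 190, 381 and 196, and 89.3 and 81.7 RPKM. The part of these differences in the result for the members was not tested.

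Other genes of the pathway, 74 symbols that are not members, gave a wider range. The order RA1 above RA3 above RA2 held for 24 of 34 other replication genes, for 12 of 20 other nucleotide supply genes and for 18 of 20 other G1/S control genes. Past 2-fold higher in RA1 than in RA2 were 16, 5 and 15 of them. MYBL2, a transcription factor of the G1/S and later stages, had 77.9, 15.5 and 36.9 RPKM in RA and 5.0 and 18.3 in TA.

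The ratio of RA to TR compares the level of an mRNA with the reads on its gene in nuclei. In a limma fit of the 7 libraries on the log2(RPKM + 0.1) scale, adjusted by Benjamini-Hochberg over all expressed genes, 6 members were higher in RA than in TR and 9 were lower at an adjusted p under 0.05. Of all genes tested, 19.2% were higher and 48.0% were lower. The median standard error (SE) was 0.48 for the members and 0.25 for all genes. A ratio of the same size was therefore less readily called in the typical member. The median member ratio was -0.36 on the log2 scale, and that of all genes -0.58, so the sign of a ratio depends on how the libraries are scaled. With each library centred on its median, 11 members were higher and 3 were lower, against 35.4% and 33.7% of all genes. The result also depended on single libraries. Without RA1 the count was 5 higher and 18 lower, beside 19.5% and 48.7% of all genes, and without RA2 it was 10 and 9, beside 18.5% and 46.7%. Without TR1 it was 2 and 1, beside 15.1% and 40.3%, and without TR2 1 and 1, beside 12.9% and 37.9%. Of the 15 calls, 2 were kept whichever of the 7 libraries was left out, those of RFC1 and RFC4. With no filter on low values, the calls of RRM1 and RPA1 were lost. The median member was 0.51 and 0.70 above TR1 and TR2 in RA1, but -1.30 and -1.20 in RA2.

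The members higher in RA than in TR were RRM1, RPA1, POLD2, SLBP, RFC1 and ORC5. RRM1 was 1.22 ± 0.45 (SE) higher on the log2 scale by limma (adjusted p = 0.0394), above both TR libraries in all 3 RA libraries. RPA1, the large subunit of the single-strand binding complex, had 60.8, 24.6 and 32.0 RPKM in RA and 19.7 and 17.7 in TR, a ratio of 0.96 ± 0.35 (adjusted p = 0.0388 by limma). POLD2, an accessory subunit of DNA polymerase delta, had 97.0, 59.0 and 67.8 RPKM in RA against 44.4 and 34.0 in TR, 0.91 ± 0.28 (adjusted p = 0.0188 by limma). SLBP had 70.5, 36.8 and 44.9 RPKM in RA and 29.9 and 25.1 in TR. The RA and TR libraries of these 4 genes did not overlap. That also held for the called RFC1 and ORC5 and for the uncalled PCNA, RPA2, ORC3 and CCNE1. The share of all genes without such overlap was not worked out. RFC1, with 21.1 and 18.4 RPKM in TR, had the smallest adjusted p of the 6, 0.00407 by limma, for a ratio of 0.76 ± 0.17. PCNA had 168, 67.2 and 72.1 RPKM in RA and 46.4 and 49.6 in TR, a ratio of 0.96 ± 0.38 that missed the threshold (adjusted p = 0.0543 by limma).

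Lower in RA were CCNE2, CDC25A, GINS3, POLA2, CDT1, POLD3, GINS4, RFC4 and ORC2. RFC4, with 118 and 120 RPKM in TR, was the member with the highest TR, and its ratio was -1.46 ± 0.24 (adjusted p = 0.000861 by limma). CDT1, the licensing factor that is degraded in S phase, had 113 and 120 RPKM in TR and 54.4, 19.7 and 43.3 in RA, a ratio of -1.69 ± 0.50 (adjusted p = 0.0167 by limma). CDC25A had 22.5 and 20.3 RPKM in TR, and its ratio was -2.06 ± 0.62. GINS3, a subunit of the helicase, had 18.1 and 21.9 RPKM in TR and 9.70, 3.51 and 4.74 in RA, a ratio of -1.85 ± 0.43. POLA2, the second subunit of DNA polymerase alpha, had 25.0 and 28.0 RPKM in TR and 14.5, 3.67 and 7.61 in RA, a ratio of -1.82 ± 0.51. The CCNE2 ratio was -2.89 ± 0.95 (adjusted p = 0.0264 by limma). Exons of other genes cover 21.3% of POLA2, 23.4% of GINS4 and 10.9% of GINS3, so these are uncertain too. ORC2, at 20.0 and 24.2 RPKM in TR, lay at the median of all genes with a ratio of -0.59 ± 0.22, and with the libraries centred it turned to 0.08.

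Subunits of 1 complex lay on both sides. POLD2 and POLD3 are subunits of DNA polymerase delta. POLD3, the member with the lowest mean RA, had 17.1 and 14.4 RPKM in TR and 7.73, 2.87 and 5.21 in RA, a ratio of -1.67 ± 0.41 (adjusted p = 0.00683 by limma). The POLD2 level was 2.35 to 2.59 times that of POLD3 in TR, 12.5 to 20.5 times in RA and 8.89 to 9.85 times in TA. In the clamp loader, RFC1 was called higher and RFC4 lower, also with the libraries centred, and the highest subunit was 7.28 and 10.1 times the lowest in TR and 2.49 to 4.56 times in RA. RFC3, the lowest of them in TR and RA, had 16.2 and 12.0 RPKM in TR and 20.6, 7.40 and 14.8 in RA. RFC2 had 31.1 and 30.1 RPKM in TR and 41.0, 14.3 and 23.0 in RA, and RFC5 28.6 and 30.1 in TR and 48.9, 13.0 and 27.3 in RA. POLA1 and the primase subunits PRIM1 and PRIM2 had ratios of -0.87 ± 0.55, 0.13 ± 0.30 and 0.31 ± 0.42, which were not called.

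**Figure D4:**
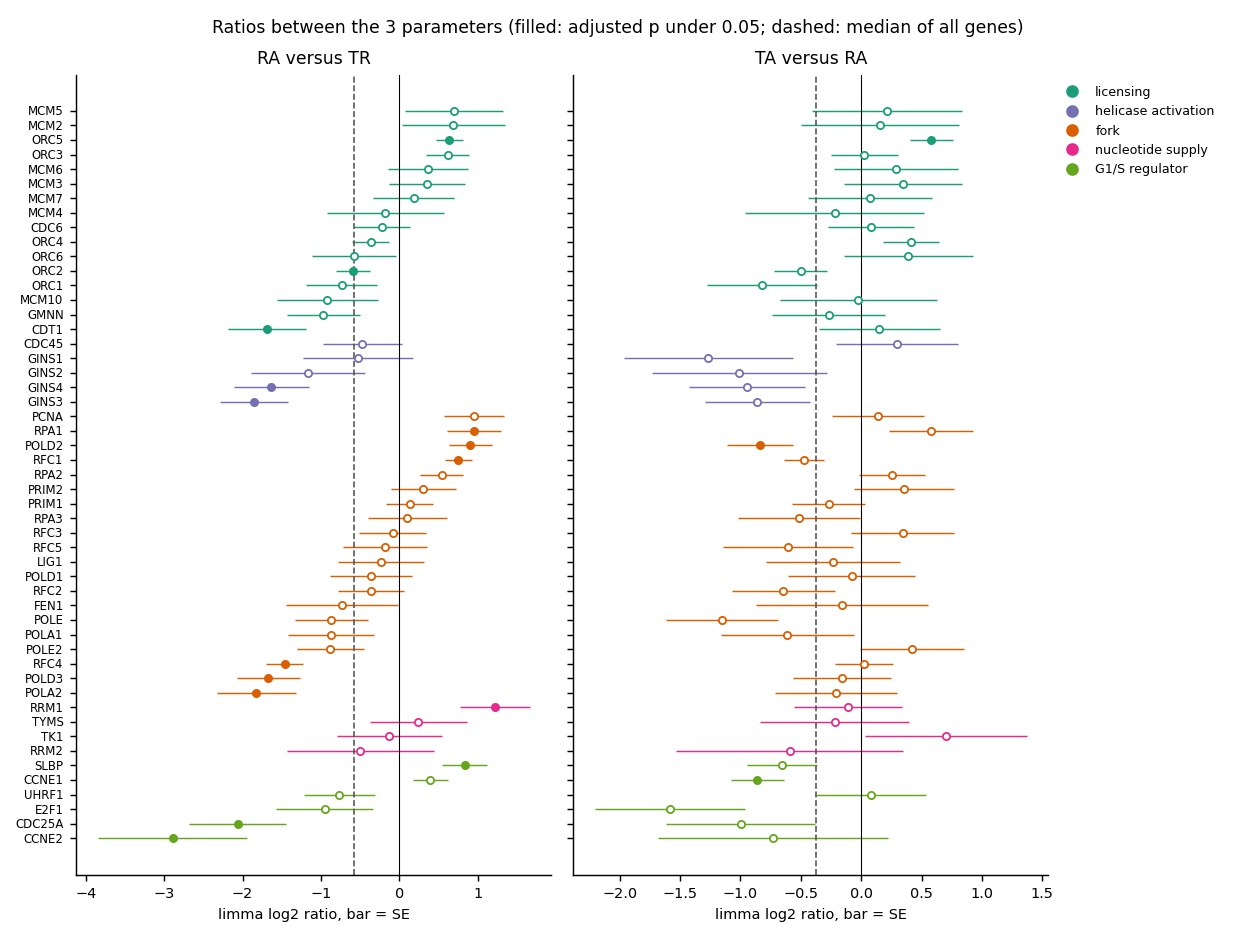
Log2 ratio of RA versus TR on the left and of TA versus RA on the right for the 51 members, from limma, with bars of 1 SE; filled points have an adjusted p under 0.05 and the dashed line is the median of all expressed genes. On the left 15 members are filled, on both sides of 0, and on the right 3 are.

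The ratio of TA to RA compares the mRNA on polysomes with the mRNA in the cell. ORC5 was higher and CCNE1 and POLD2 were lower, and the other 48 members were not called. Of all genes, 6.66% were higher and 29.2% lower, but the median SE was again 0.48 for the members and 0.25 for all genes. The median member was -0.16 and that of all genes -0.37 on the log2 scale. ORC5 had 26.1 and 22.3 RPKM in TA, above its 3 RA libraries, with a ratio of 0.58 ± 0.18 (adjusted p = 0.036 by limma). CCNE1 had 10.2 and 13.3 RPKM in TA, below its 3 RA libraries, with a ratio of -0.86 ± 0.22 (adjusted p = 0.0206 by limma). POLD2 had 33.2 and 50.0 RPKM in TA, below RA, with a ratio of -0.84 ± 0.28 (adjusted p = 0.0464 by limma). Over single libraries the median member ran from -1.46 for TA1 over RA1 to 0.98 for TA2 over RA2. Without RA2, 9 members were lower, against 27.9% of all genes. The ORC5 call was lost without RA1, RA2, RA3, TA1 or TA2, the POLD2 call without TR1, TR2, RA1, RA3 or TA1 and the CCNE1 call without TR1, TR2 or TA1. With the libraries centred, ORC5, ORC4 and RPA1 were called, all 3 higher, where 19.0% of all genes were higher and 9.81% lower.

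At the top of the TA to RA ratios that were not called stood TK1 at 0.70 ± 0.67, RPA1 at 0.58 ± 0.35, POLE2 at 0.42 ± 0.43 and ORC4 at 0.41 ± 0.23. RPA1 had 48.7 and 60.7 RPKM in TA, within its range in RA. POLE2, an accessory subunit of DNA polymerase epsilon, had 14.9 and 14.3 RPKM in TR, 13.3, 4.34 and 8.48 in RA and 8.40 and 13.4 in TA. The lowest were E2F1 at -1.58 ± 0.62, GINS1 at -1.27 ± 0.70, POLE at -1.15 ± 0.46, GINS2 at -1.01 ± 0.73 and CDC25A at -1.0 ± 0.62. E2F1 had 30.2 and 34.3 RPKM in TR. POLE, the catalytic subunit of DNA polymerase epsilon, had 39.7 and 28.2 RPKM in TR, 31.2, 10.3 and 19.1 in RA and 5.90 and 11.4 in TA. POLE was above POLE2 in TR and RA and below it in TA.

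Because the members differed together between libraries, each was also set relative to the median member of the same library, which removes what they hold in common. These values are a description with no test. On this scale 8 members lay above and 13 below their RA libraries in both TA libraries, and 30 overlapped. Of all expressed genes, set relative to the same median member, 4.31% lay above and 17.4% below. This scaling adds the members' shared difference to genes that lack it, so these shares are not a like reference. Relative to the median member, but not in RPKM, the 4 GINS subunits each lay lower in both TA libraries than in any RA library. None of them was called in TA versus RA by limma. GINS1 had 18.2 and 13.9 RPKM in TR, 25.2, 4.25 and 12.2 in RA and 2.66 and 7.55 in TA. GINS2 had 36.7 and 39.9 RPKM in TR, 50.0, 7.18 and 13.6 in RA and 5.39 and 13.1 in TA. GINS3 had 2.17 and 4.01 RPKM in TA. Relative to the median member, GINS4 was at -0.24 and 0.20 in TR, -1.22, -1.66 and -1.54 in RA and -2.22 and -2.42 in TA on the log2 scale. CDC45, which joins the helicase with GINS, had 20.1 and 20.4 RPKM in TR, 28.6, 7.71 and 13.9 in RA and 12.7 and 25.1 in TA. Relative to the median member it was at -0.24 and -0.10 in TR, -0.25, -0.75 and -0.41 in RA and -0.19 and 0.05 in TA, so it lay higher in TA than in RA.

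Between RA and TR on the same scale, 16 members lay higher, 19 lower and 16 overlapped. Of all expressed genes, 17.7% lay higher and 41.9% lower, and these shares are likewise not a like reference. PCNA was at 0.96 and 1.18 in TR, 2.30, 2.36 and 1.96 in RA and 2.61 and 2.28 in TA. RRM1 was at 0.12 and -0.19 in TR and between 1.21 and 1.58 in every RA and TA library. RPA1 was at -0.27 and -0.31 in TR, 0.84, 0.91 and 0.79 in RA and 1.73 and 1.32 in TA. MCM2, MCM3, MCM5, MCM6 and MCM7 lay higher in RA than in TR, and MCM4 overlapped. Lower were CDT1, GMNN, ORC1, ORC6, GINS2, GINS3 and GINS4 among others.

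In TA versus TR, 4 members were called higher and 13 lower by limma, against 17.0% and 57.5% of all genes. The median SE was 0.52 for the members and 0.27 for all genes. ORC5 (adjusted p = 0.000556 by limma), RPA1, PCNA and RPA2 were higher. The lower members were CCNE2, CDC25A, GINS2, GINS3, GINS4, E2F1, POLA2, POLE, POLD3, ORC1, ORC2, CDT1 and RFC4. The median member was -0.44 and that of all genes -1.08 on the log2 scale, and with the libraries centred 20 members were higher and 3 lower, against 38.0% and 35.3% of all genes. Without TR1 the counts were 1 and 4, beside 14.5% and 50.7% of all genes, and without TR2 1 and 6, beside 13.5% and 50.1%. Without TA1, 7 members were lower, beside 53.2%, and without TA2, 2 were higher, beside 2151 of the 14305 genes. The 5 calls kept whichever of the 7 libraries was left out were those of GINS3, GINS4, ORC2, ORC5 and RFC4. RA and TA are both set against the same TR libraries, so the calls of the 2 comparisons with TR are not independent.

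Of the other pathway genes, NME1, a nucleoside diphosphate kinase, was highest in RA versus TR at 2.45 ± 0.18 on the log2 scale (adjusted p = 7.81e-06 by limma), followed by the kinase CMPK1 at 2.18 ± 0.16. RNASEH2C, a subunit of ribonuclease H2, was lowest at -3.36 ± 0.35 (adjusted p = 6.27e-05 by limma), followed by TICRR, an activator of replication origins, at -2.77 ± 0.69. In TA versus RA, TOP1, a DNA topoisomerase, was highest at 0.97 ± 0.32 (adjusted p = 0.0466 by limma), followed by UMPS of pyrimidine synthesis at 0.92 ± 0.19. ATAD5, which unloads PCNA, was lowest at -1.96 ± 0.44 (adjusted p = 0.0125 by limma), and MYBL2 followed at -1.88 ± 0.70, which was not called. In TA versus TR, NME1 at 2.82 ± 0.19 and TOP1 at 2.18 ± 0.35 were highest, and ATAD5 at -4.52 ± 0.48 and RNASEH2C at -4.44 ± 0.38 lowest. Of the 20 other nucleotide supply genes, 9 were higher and 1 lower in RA than in TR. Of the 34 other replication genes 4 were higher and 14 lower, and of the 20 other G1/S control genes 1 and 9. All genes tested gave 19.2% higher and 48.0% lower. In TA versus RA, 5 of the nucleotide supply genes were higher and 2 lower, and 1 of the replication genes was higher and 7 lower. Of the G1/S control genes, 5 were lower. Here all genes gave 6.66% higher and 29.2% lower.

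The canonical transcripts of the members had a median UTR share of 39.0%, from 3.35% for POLD1 to 82.3% for GINS4, against 49.6% for all 13096 expressed coding genes. The UTR share and RA over TR had a Pearson r of -0.306 over the 51 members and of 0.099 over all coding genes, and the UTR share and TA over RA had -0.252 and -0.165. These correlations are across genes and carry no test. The median coding length of the members was 466 codons, against 457.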

How the data were processed

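GRO-seq (2 libraries), RNA-seq (3) and polysome profiling (2) gave TR, RA and TA. The authors aligned reads to hg19 with TopHat, counted them over exons with HTSeq and deposited RPKM values per gene and library (CASAVA is also named in the submitters' processing notes), and the strand setting is not given in the sources used here. Library sizes and reads were worked out from the RPKM steps, and 100% of the values above 0 came out whole within 0.001 reads. A mean-variance trend was used in limma 3.58.1 (R 4.3.3), fitted to log2(RPKM + 0.1) of the 14305 genes whose mean reached 1 RPKM in TR, RA or TA, with Benjamini-Hochberg adjustment at 0.05. Differences between single libraries used the same scale and a 2-fold limit. Alternatives covered the pseudocount, the filter, the scaling, the replicate block, the trend, the samples fitted and each library left out. Members with values in every library are those highest and lowest in a ratio, those of complexes with subunits on both sides of 0 and those with the highest and lowest RA. The members and gene lists were chosen with earlier results of these data known. Scripts were tested on simulated data, in Python 3.11.15 with numpy 2.4.6 and pandas 2.3.3.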

Additional observations from a re-analysis of the deposited data

How the results depend on the processing

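Counts are given as members higher and lower unless all genes are named. With each library centred on its median, RA versus TR gave 11 and 3 members and 5066 and 4814 of all genes, TA versus RA gave 3 and 0 members and 2713 and 1404 of all genes, and TA versus TR gave 20 and 3 members, 5436 and 5044 of all genes and a median member ratio of 0.74 on the log2 scale. ORC2 turned from lower to 0.08 in RA versus TR and to 0.08 in TA versus TR. Quantile normalization gave 5676 and 4194 of all genes in RA versus TR, 366 and 553 of all genes and 0 and 0 members in TA versus RA, and 5488 and 4293 of all genes, 9 members higher and a median member ratio of 0.08 in TA versus TR. With 1 RPKM required in each parameter, 10825 genes were tested. Of these, 3656 (33.8%) were lower in RA versus TR and 4935 (45.6%) in TA versus TR. In TA versus RA, 1 member was lower with a pseudocount of 1, with no filter and with no trend. All genes gave 25.1%, 20.4% and 29.2% lower. When the fit held the 2 parameters compared, 0 members were lower, beside 21.6% of all genes. In TA versus TR 2 members were higher with no filter, beside 13.4% of all genes. The cause of these differences was not tested.

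The replicate block gave 1 and 3 members and 2083 and 5996 of all genes in RA versus TR, 0 and 0 members and 109 and 1387 of all genes in TA versus RA, and 2 members higher and 2173 of all genes in TA versus TR. The labels share replicate numbers between the assays but do not say that a number marks a culture. Over 10825 genes, the deviations of replicates 1 and 2 had a correlation of -0.562 for TA with RA, 0.149 for RA with TR and 0.020 for TA with TR, so the numbers were not taken to pair the libraries.

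Leaving out each library in turn gave 1 to 10 members higher and 1 to 18 lower in RA versus TR, and 0 to 1 higher and 0 to 9 lower in TA versus RA, where all genes gave 198 to 1030 higher and 1803 to 4228 lower. In TA versus TR it gave 1 to 5 members higher, 4 to 17 lower and a median member ratio of -0.95 to 0.02. In TA versus RA, POLE2 ran from -0.0019 without RA replicate 2 to 0.80 without RA replicate 1, and TK1 from -0.0055 without TA replicate 2 to 1.41 without TA replicate 1, and neither had been called. A lone library left in an arm is assumed to vary like the others. No arm is left with a lone library when an RA library is omitted. RA versus TR then gave 4 to 10 members higher and 7 to 18 lower. All genes gave 2291 to 2791 higher and 6355 to 6968 lower. TA versus TR then gave 3 to 5 members higher and 12 to 17 lower. All genes gave 2305 to 2601 higher and 8002 to 8472 lower. Between single libraries, a limit of 3-fold was chosen after seeing the data. Past it, 28 members were higher in RA1 than in RA2 and 3 in RA1 than in RA3. There were 2 higher in RA3 than in RA2 and 2 in TA2 than in TA1. The share of all genes past 3-fold was not worked out. Of 752 alternative values of members named in a comparison, 587 kept both their direction and their side of the threshold, 142 lost a call, 19 gained one and 4 changed sign.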
